A study of Mus musculus with 27 samples.

Results

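The effect of Cyclosporin A (CsA) on gene expression was measured in mouse bone marrow cultures after 24 h with Flt3 ligand (Flt3-L). The arrays were chosen by title: 3 from cultures with Flt3-L and CsA and 3 from cultures with Flt3-L alone, which makes 6 of the 27 arrays in the series. The cells came from the femurs and tibiae of C57BL/6 mice of 8 to 12 weeks, and no mutation or transgene is named. Both groups grew in medium with serum and Flt3-L at about 200 ng/ml, taken from transfected B16 tumour cells. CsA was given at 2 µg/ml from 30 min before Flt3-L onwards, and a solvent for the other cultures is not stated in the labels. The other arrays held unstimulated cells and the same 2 kinds of culture at 12 h, 48 h and 11 days. The labels call the samples biological replicates without saying whether each came from a mouse or a culture of its own, so p-values measure the spread between these samples, which may be technical.

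CsA blocks calcineurin, a phosphatase switched on by calcium. Calcineurin removes phosphate from NFAT transcription factors, which then enter the nucleus and switch on cytokine and early response genes in lymphocytes, mast cells and several myeloid cells. Flt3-L drives marrow progenitors toward dendritic cells, while the mature neutrophils, eosinophils, basophils and B cells that are taken out with the marrow survive for different lengths of time in the dish.

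Expression is given as the deposited array intensity on a linear scale, and differences are log2 values with CsA minus those without it, ± SE from a limma model over 19935 genes. The 6 array medians lay between 117.4 and 123.9. Across genes every one of the 6 correlated best with an array of its own group, but CsA array 3 was nearly as close to Flt3-L array 3 (correlation 0.9974) as to CsA array 2 (0.9978). Across all probe sets its nearest array was Flt3-L array 3, at 0.99768 against 0.99766 for CsA array 2. Counts for all genes and for several lists are therefore also given without both arrays numbered 3. Neutrophils make up much of marrow, and their genes were measured in both groups. The neutrophil protein gene S100a8 read 6433, 6202 and 6031 without CsA and 6272, 5858 and 5893 with it, a difference of -0.05 ± 0.10 (adjusted p = 0.92). The neutrophil granule gene Ltf read 5900.5, 6166 and 5924 without CsA and 6252, 6447 and 6063 with it.

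CsA changed 754 genes at an adjusted p under 0.05, which is 3.78% of those tested. Of these, 318 rose (1.60%) and 436 fell (2.19%), against a median of -0.0063 over all genes. At an unadjusted p under 0.05, 1240 genes were higher (6.22%) and 1399 lower (7.02%), the shares to set beside the unadjusted counts of the lists. Most changes were small: 1 gene rose and 17 fell at least 2-fold, and 11 rose and 80 fell at least 1.5-fold. The 3 CsA arrays lay outside the range of the 3 others for 747 of the 754 genes, while over all genes tested 7.41% lay wholly above and 9.19% wholly below. Without both arrays numbered 3, 129 genes rose and 201 fell. A fit of only the 6 arrays gave 135 and 261, and leaving out Flt3-L array 1 gave 181 that rose and leaving out CsA array 1 gave 285 that fell.

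**Figure D1:**
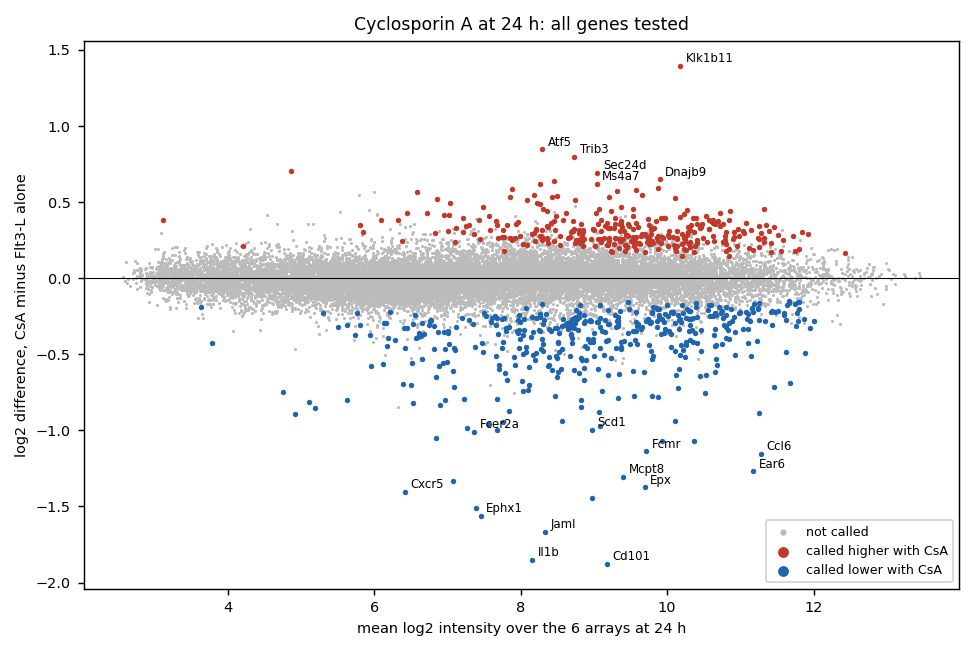
Log2 difference with CsA (CsA minus Flt3-L alone, 24 h) against mean log2 intensity over the 6 arrays, 1 point per gene, with 318 genes called higher in red and 436 called lower in blue. The falls of Cd101 (-1.88), Il1b (-1.85) and Jaml (-1.66) reach further from 0 than any rise, of which Klk1b11 (1.40) is the largest.

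The gene with the largest fall was Cd101, an immunoglobulin superfamily receptor of mature neutrophils and other myeloid cells. It read 1067, 1156 and 1096 without CsA and 214, 374 and 342 with it, a 3.67-fold fall (-1.88 ± 0.17, adjusted p = 2.2e-07). The 3 CsA arrays were all below the others, as was required of the 20 largest falls named here, with array 1 the lowest. The adhesion receptor gene Jaml, expressed on neutrophils and some lymphocytes, read 519.9, 584 and 624 without CsA and 163, 194 and 188 with it and fell 3.17-fold (-1.66 ± 0.12, adjusted p = 1e-08). Ephx1, the microsomal epoxide hydrolase, read 315, 277 and 312 without CsA and 117, 90.3 and 100.3 with it, a change of -1.56 ± 0.12. Groups that did not overlap were a condition for naming Jaml and Ephx1 too. Other surface and metabolic genes among the 20 largest falls were Mpzl3 (-1.51 ± 0.14), the pantetheinase gene Vnn3 (-1.33 ± 0.12), Cyp4f18, whose enzyme inactivates leukotriene B4 (-1.07 ± 0.12), the myeloid receptor gene Cd300ld (-1.07 ± 0.13) and the interferon-inducible family member Ifi214 (-1.05 ± 0.15). The immunoglobulin J chain gene Jchain fell as well, at 214, 375 and 229 without CsA and 107, 190.4 and 122 with it, with array 2 the highest in both groups. Calls that depended on a single array were those of Jchain (without CsA array 1 or 3 or Flt3-L array 2, adjusted p up to 0.22).

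Among rises, Klk1b11, a member of a cluster of near-identical tissue kallikrein genes, read 648, 773 and 722 without CsA and 2075, 1689.7 and 1883 with it. It was 2.63-fold higher (1.40 ± 0.11, adjusted p = 1.1e-08), and the arrays did not overlap, as was required of the 20 largest rises named here. Because the probes of such paralogs can share signal, the member that changed is uncertain, and a second one, Klk1b1, rose by 0.71 ± 0.18 at 22.4, 25.1 and 21.1 without CsA and 43.2, 28.2 and 42.2 with it, below the intensity of 75.0 that is called dim here. The endothelin receptor gene Ednrb read 253, 318 and 274 without CsA and 389, 466 and 459.8 with it and rose 1.56-fold. Ms4a7, a membrane protein gene of macrophages, read 400.3, 462 and 412 without CsA and 634, 696 and 627 with it and rose 1.54-fold (adjusted p = 0.00027). The adhesion receptor gene Adgrl2 (0.54 ± 0.08), the kinase gene Cdk18 (0.55 ± 0.05), the lipid phosphatase gene Plpp5 (0.55 ± 0.05) and the endoplasmic reticulum protein gene Reep6 (0.57 ± 0.09) were also among the 20 largest rises. Calls that ended when 1 array was left out were those of Klk1b1 (without CsA array 1 or 3 or Flt3-L array 1 or 3, adjusted p up to 0.11) and Ednrb (without Flt3-L array 1, adjusted p up to 0.068).

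**Figure D2:**
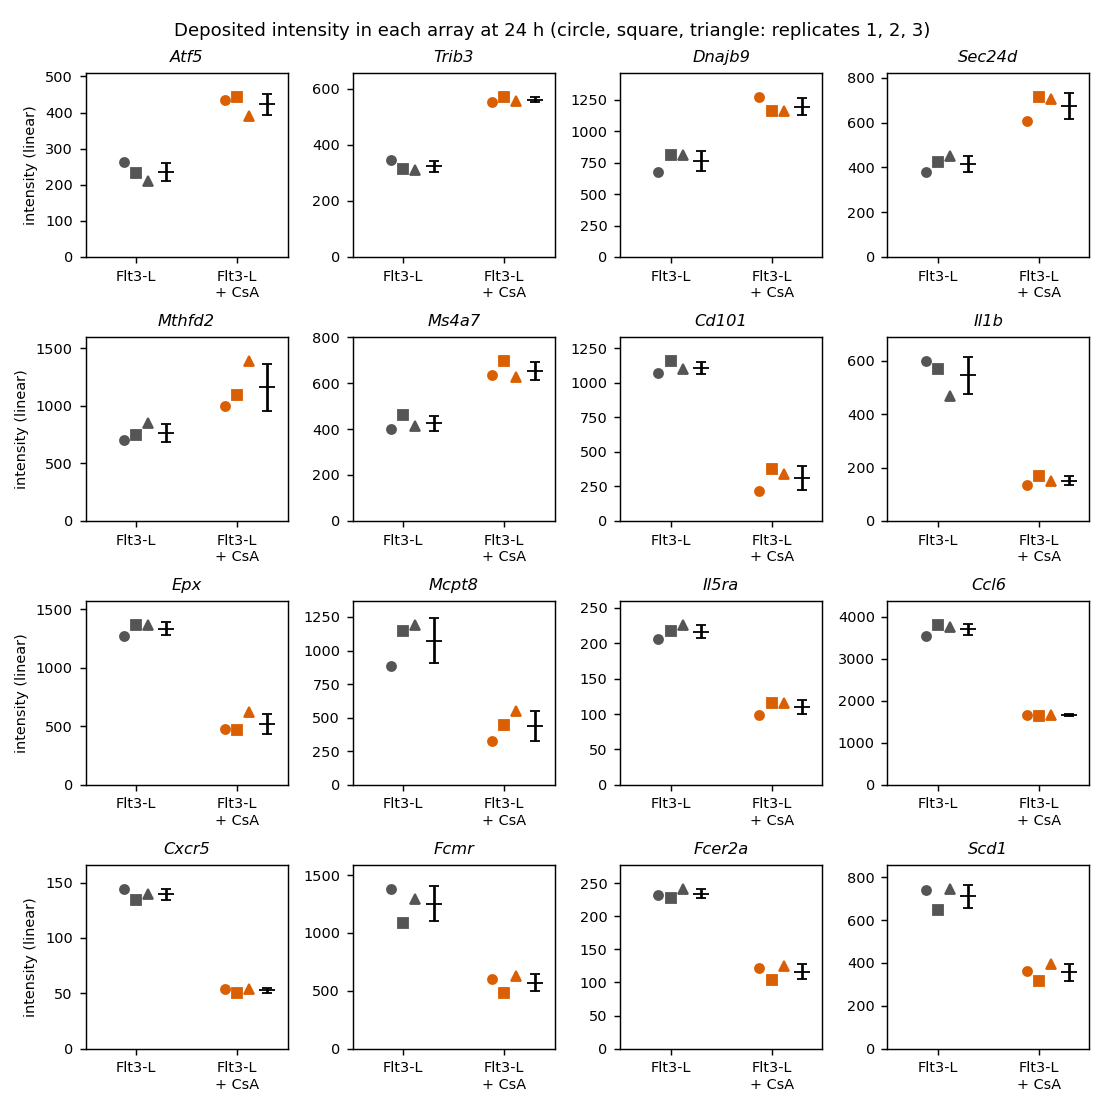
Deposited intensity (linear scale, axis from 0) of 16 genes in each of the 6 arrays at 24 h, in grey for Flt3-L alone and in orange for Flt3-L with CsA, with the marker shape giving the replicate number and the black bar the mean ± SD of 3 arrays. The genes shown were chosen among those whose groups do not overlap. Epx lies between 1269 and 1365 without CsA and between 465 and 618 with it.

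Some genes of the pathway that CsA blocks changed, by small amounts. Of 36 tested members of a calcineurin and NFAT pathway list, 3 fell and 1 rose (1 higher and 10 lower at an unadjusted p under 0.05), with a median of -0.03, against 2.19% of all genes called lower and 1.60% higher. Nfatc1, the family member that is known to amplify its own transcription, read 888, 847 and 801 without CsA and 692, 706 and 676 with it and fell 1.22-fold (-0.29 ± 0.06, adjusted p = 0.0025). The other family genes did not pass the test: Nfatc2 differed by -0.13 ± 0.06, Nfatc3 by 0.01 ± 0.05 and Nfatc4 by 0.08 ± 0.09. The calcium channel gene Orai1 fell by 0.21 ± 0.06, and Cabin1, which encodes a calcineurin inhibitor, rose by 0.19 ± 0.05. The calcineurin subunit genes Ppp3ca (-0.06 ± 0.05), Ppp3cb (0.04 ± 0.05) and Ppp3r1 (0.06 ± 0.06) were not called. Rcan1, a calcineurin regulator that NFAT induces in many cells, read 244, 289 and 250.3 without CsA and 242, 249 and 245 with it, and its groups overlapped (adjusted p = 0.82). A fit of only the 6 arrays called 0 members of this list, and without both arrays numbered 3 the count was 1 lower. The following calls ended without 1 of the 6 arrays: Orai1 (without CsA array 1 or 3 or Flt3-L array 1 or 2 or 3, adjusted p up to 0.13) and Cabin1 (without any of the 6, adjusted p up to 0.12).

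Genes commonly induced through NFAT fell in part. Of 31 tested, 8 fell and 0 rose, against 2.19% of all genes called lower. At an unadjusted p under 0.05, 0 were higher and 12 lower, and the median was -0.09. Il2ra, the interleukin 2 receptor alpha chain, read 655, 542 and 627 without CsA and 364, 313 and 336 with it and fell 1.8-fold (-0.85 ± 0.12, adjusted p = 5.6e-05). Ptgs2, the inducible cyclooxygenase, read 185, 206 and 203 without CsA and 92.8, 143 and 111 with it and fell 1.74-fold (-0.80 ± 0.15). Egr2, an early response factor that NFAT induces in T cells, read 252, 257 and 262 without CsA and 192, 176 and 145 with it and fell 1.51-fold (-0.60 ± 0.10). In these 3 genes every CsA array lay below every array without it. The transcription factor gene Irf4 fell by 0.42 ± 0.10. The cytokine genes Il4 (-0.23 ± 0.10), Tnf (-0.14 ± 0.09) and the dim Il6 (0.08 ± 0.14) did not pass the test. Without both arrays numbered 3, 5 members fell. Leaving out a single array ended the calls of Irf4 (without CsA array 2 or 3 or Flt3-L array 1, adjusted p up to 0.071).

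Of 32 immediate early genes 7 fell and 0 rose, against 2.19% of all genes called lower. At an unadjusted p under 0.05, 1 was higher and 10 lower. The median was -0.06, and 5 fell without both arrays numbered 3. Dusp1, a phosphatase that ends MAP kinase signals, read 1368, 1504 and 1388 without CsA and 989.8, 1108 and 1045 with it and fell 1.36-fold (-0.44 ± 0.07). The orphan receptor gene Nr4a1 (-0.34 ± 0.07), Zfp36, whose product destabilises cytokine mRNAs (-0.34 ± 0.06), and the AP-1 gene Fosl2 (-0.28 ± 0.06) fell as well. Textbook members of the class were not called: Fos differed by -0.12 ± 0.09 and Egr1 by 0.13 ± 0.12. Without 1 array the call ended for Fosl2 (without CsA array 1, adjusted p up to 0.064).

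Genes of eosinophils and basophils fell. Eosinophils kill parasites with granule proteins such as eosinophil peroxidase (Epx) and major basic protein (Prg2) and depend on interleukin 5. Basophils carry the proteases Mcpt8 and Prss34. Of 25 tested genes of a mast cell, basophil and eosinophil list, 13 fell and 0 rose (0 higher and 17 lower at an unadjusted p under 0.05), with a median of -0.35 and 2.19% of all genes called lower. The summed intensity of the list lay between 20916 and 22115 without CsA and between 12772 and 13726 with it. In bulk samples, fewer cells of a type and less RNA per cell cannot be told apart. The count was 11 without both arrays numbered 3.

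Epx read 1269, 1364 and 1365 without CsA and 473, 465 and 618 with it and fell 2.59-fold (-1.37 ± 0.12, adjusted p = 1.4e-07). Prg2 read 3574, 3476 and 2919 without CsA and 1936, 1700.5 and 1739.6 with it and fell 1.85-fold (-0.89 ± 0.10), and its relative Prg3 fell 1.84-fold (-0.88 ± 0.11). All 3 granule genes had CsA arrays wholly below the others. Ear6, an eosinophil ribonuclease of a family of close paralogs, read 3453, 3709.5 and 3624 without CsA and 1524, 1385 and 1573 with it and fell 2.41-fold, though the signal cannot be assigned to 1 member with certainty. Among receptors, the interleukin 5 receptor gene Il5ra read 206, 218 and 226 without CsA and 98.5, 115 and 116 with it and fell 1.98-fold (-0.98 ± 0.13). The eotaxin receptor gene Ccr3 read 663, 773 and 859 without CsA and 359, 346 and 473 with it and fell 1.96-fold (-0.97 ± 0.13), and the sialic acid lectin gene Siglecf fell by 0.51 ± 0.07. Alox15, an arachidonate lipoxygenase of eosinophils and some macrophages, read 1379, 1458 and 1544 without CsA and 809.6, 844 and 1014 with it and fell 1.65-fold (-0.72 ± 0.12).

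Of the basophil proteases, Mcpt8 read 882, 1149 and 1190.1 without CsA and 328, 443 and 549.8 with it, with the first array lowest in both groups, and fell 2.47-fold (-1.31 ± 0.16, adjusted p = 1.1e-05). Prss34 read 1582, 1557 and 1459.5 without CsA and 776, 769 and 856 with it and fell 1.92-fold (-0.94 ± 0.10). The histamine synthesis gene Hdc, shared by basophils and mast cells, fell by 0.45 ± 0.13. The IgE receptor chains Fcer1a (0.03 ± 0.22) and Ms4a2 (-0.35 ± 0.11), which both cells carry, and the mast cell protease Cpa3 (-0.30 ± 0.12) did not pass. The erythroid and eosinophil factor Gata1 differed by -0.08 ± 0.10. Gata2, the factor of basophils, mast cells and progenitors, fell by 0.26 ± 0.07, a call that was also lost with the replicate number as a block (adjusted p = 0.054). Calls lost on leaving out 1 array were those of Hdc (without any of the 6, adjusted p up to 0.18) and Gata2 (without any of the 6, adjusted p up to 0.19).

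B cell genes fell as well. Of 23 tested B lineage genes 8 fell and 0 rose, against 2.19% of all genes called lower. At an unadjusted p under 0.05, 1 was higher and 15 lower, and the median was -0.34. With the replicate number as a block 14 fell, and 6 fell without both arrays numbered 3. The summed intensity ran from 23868 to 27948 without CsA and from 18931 to 22916 with it. Fcmr, the receptor for IgM, read 1380.3, 1083 and 1296 without CsA and 601, 485 and 626 with it and fell 2.2-fold (-1.14 ± 0.12, adjusted p = 9.2e-07). Fcer2a, the low-affinity IgE receptor CD23 of mature B cells, read 232, 228 and 241 without CsA and 121, 103 and 125 with it and fell 2.01-fold (-1.01 ± 0.11). Both genes had groups far apart, and in Fcmr array 2 was the lowest of each group. The scaffold gene Bank1 read 595, 549 and 646 without CsA and 361, 318 and 348 with it and fell 1.74-fold (-0.80 ± 0.07), and the complement receptor gene Cr2 fell by 0.58 ± 0.07 at a dim signal. The inhibitory receptor genes Cd22 (-0.51 ± 0.10) and Cd72 (-0.50 ± 0.09) and the antigen receptor chain gene Cd79a (-0.43 ± 0.10) fell too. Calls that depended on a single array were those of Cd79a (without CsA array 2 or 3 or Flt3-L array 1, adjusted p up to 0.091).

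Cxcr5, the receptor that guides B cells to follicles, was in the chemokine receptor list and read 144, 134 and 140.1 without CsA and 53.9, 50.3 and 53.8 with it. It fell 2.65-fold (-1.41 ± 0.10, adjusted p = 3.6e-09). The recombinase gene Rag1 of precursor B cells (-0.54 ± 0.14) and Ikzf3, the lymphoid factor Aiolos (-0.50 ± 0.10), fell. The lineage factor Pax5 read 1224, 1051 and 1128 without CsA and 1035, 812 and 853 with it and did not pass (adjusted p = 0.064), nor did Ebf1 (-0.47 ± 0.14, adjusted p = 0.057) or Cd79b (-0.30 ± 0.10, adjusted p = 0.1). With the replicate block these 3 were called, at adjusted p = 0.0033, 0.022 and 0.011. Calls that ended when 1 array was left out were those of Rag1 (without CsA array 1 or 2 or Flt3-L array 1 or 3, adjusted p up to 0.14).

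Class II antigen presentation genes, which B cells, dendritic cells and macrophages use to show peptides to T cells, fell in 8 of 12 cases. None rose, and 2.19% of all genes were called lower. At an unadjusted p under 0.05, 0 were higher and 10 lower, and the median was -0.28. H2-Ob read 1533, 1329 and 1499 without CsA and 1063, 963 and 1019.7 with it and fell 1.43-fold (-0.52 ± 0.10), and H2-Oa fell by 0.47 ± 0.07. These 2 genes encode the chains of H2-O, a peptide loading regulator found mostly in B cells. The classical class II chain H2-Aa read 3929.7, 4034 and 3653 without CsA and 3383, 3024 and 2948 with it and fell 1.24-fold (-0.31 ± 0.07), with H2-Ab1 at -0.28 ± 0.07, H2-Eb1 at -0.31 ± 0.07 and H2-Eb2 at -0.67 ± 0.15. The invariant chain gene Cd74 fell by 0.28 ± 0.07, and the class II transactivator Ciita was not called (-0.15 ± 0.08). B lineage and class II genes moved together in these arrays, and the part of B cells in the class II result was not tested. In a fit of only the 6 arrays 3 members fell, and 4 did so without both arrays numbered 3. The following calls ended without 1 of the 6 arrays: H2-Ab1 (without CsA array 1 or 2 or Flt3-L array 1 or 3, adjusted p up to 0.16), H2-Eb1 (without CsA array 3 or Flt3-L array 1 or 2, adjusted p up to 0.078), H2-Eb2 (without CsA array 1 or Flt3-L array 3, adjusted p up to 0.061) and Cd74 (without CsA array 2 or 3 or Flt3-L array 1 or 2, adjusted p up to 0.13).

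Marker genes of conventional dendritic cells, which Flt3-L promotes, went both ways, and a few were called lower. Of 26 conventional dendritic cell genes 4 fell and 0 rose (2 higher and 7 lower at an unadjusted p under 0.05), with a median of -0.03, against 2.19% of all genes called lower. Of the 26, 12 lay above 0 and 14 below. With the replicate block 5 fell and 2 rose, and 1 fell without both arrays numbered 3. The 2 that rose with the block were Clec10a and Cadm1, at 0.38 and 0.29 in the main fit. Ccl22, a chemokine of activated dendritic cells, read 119, 127 and 121 without CsA and 62.7, 76.3 and 70 with it and fell 1.76-fold (-0.82 ± 0.13, adjusted p = 0.00029). The maturation marker Cd83 (-0.29 ± 0.08) and the lectin gene Cd209a (-0.29 ± 0.08) fell as well. The integrin gene Itgax differed by 0.05 ± 0.05 and the Flt3-L receptor gene Flt3 by 0.11 ± 0.09, neither called. Of 16 plasmacytoid dendritic cell genes 0 passed in either direction in limma (0 higher and 3 lower at an unadjusted p under 0.05), with a median of -0.11, and Siglech differed by -0.10 ± 0.08. Leaving out a single array ended the calls of Cd83 (without CsA array 2 or 3 or Flt3-L array 1 or 2 or 3, adjusted p up to 0.21) and Cd209a (without CsA array 2 or 3 or Flt3-L array 1 or 2, adjusted p up to 0.16).

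Some late neutrophil genes fell. Of 20 tested 4 fell and 0 rose, against 2.19% of all genes called lower. At an unadjusted p under 0.05, 0 were higher and 6 lower, and the median was -0.05. The summed intensity was 85256 to 86872 without CsA and 79178 to 81240 with it. Ly6g, the surface protein that defines mouse neutrophils, read 3354, 3609 and 3879 without CsA and 2049, 2121 and 2428 with it and fell 1.64-fold (-0.72 ± 0.13, adjusted p = 0.0012). Cxcr2, the receptor that releases neutrophils from the marrow, read 4192, 4144 and 4178 without CsA and 2396, 2761 and 2619.7 with it and fell 1.61-fold (-0.69 ± 0.11). Csf3r, the G-CSF receptor, read 4522, 4552 and 4364 without CsA and 3107, 3402 and 3064 with it and fell 1.41-fold (-0.49 ± 0.08). The CsA arrays were below all others in each of these surface receptor genes. The granule gene Camp differed by 0.03 ± 0.09, and Mmp9 by -0.28 ± 0.11, neither called. Stfa2, a cystatin gene, fell by 0.85 ± 0.13 at a dim signal. The count was 4 as well without both arrays numbered 3.

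Monocyte and macrophage genes went both ways, with 3 of 23 lower and 1 higher (2 higher and 7 lower at an unadjusted p under 0.05). Their median was -0.05, and 2.19% of all genes were called lower and 1.60% higher. Lyz1, a lysozyme, read 974, 1053 and 1019.9 without CsA and 687, 659.9 and 644 with it and fell 1.53-fold (-0.61 ± 0.13), and the endotoxin co-receptor gene Cd14 fell by 0.52 ± 0.11. Ms4a7 was the member that rose. Without both arrays numbered 3, 2 of these genes fell and 1 rose. The colony stimulating factor receptor Csf1r differed by -0.15 ± 0.06 (adjusted p = 0.22). Dectin-1 (Clec7a), a fungal glucan receptor whose signal is known to engage calcineurin, read 1768, 1861 and 1644 without CsA and 1258, 1098 and 1023 with it and fell 1.56-fold (-0.65 ± 0.09). Clec4d fell by 0.43 ± 0.06, and with Cd209a these made 3 of 30 C-type lectin receptor genes lower and 0 higher (2 higher and 9 lower at an unadjusted p under 0.05). Without 1 array the call ended for Cd14 (without CsA array 1, adjusted p up to 0.064).

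Interleukin 1 family genes fell in 5 of 20 cases and rose in 0, against 2.19% of all genes called lower. At an unadjusted p under 0.05, 4 were higher and 6 lower, and the median was -0.11. With the replicate block 6 fell and 2 rose. Il1b, the inflammatory cytokine, read 599, 570.4 and 468 without CsA and 136, 168 and 150.1 with it and fell 3.6-fold (-1.85 ± 0.19, adjusted p = 1.1e-06). Its natural antagonist Il1rn read 706, 830.5 and 812 without CsA and 552, 564 and 579.9 with it and fell 1.38-fold (-0.47 ± 0.07). The inflammasome sensor gene Nlrp3, which controls release of the protein (-0.42 ± 0.10), and the family member Il1f9 (-0.51 ± 0.12) fell as well. Without both arrays numbered 3, 2 members fell. Calls lost on leaving out 1 array were those of Nlrp3 (without CsA array 1 or Flt3-L array 2, adjusted p up to 0.1) and Il1f9 (without CsA array 1 or Flt3-L array 2, adjusted p up to 0.053).

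Outside the interleukin 1 family, Csf1, the macrophage growth factor, read 315, 375 and 371 without CsA and 198, 218 and 222 with it and fell 1.66-fold (-0.73 ± 0.12). Il12a fell by 0.40 ± 0.08, and Vegfa, the vascular growth factor, rose by 0.29 ± 0.06. These were the 3 calls among 28 inflammatory cytokine genes (2 higher and 3 lower at an unadjusted p under 0.05). Of all genes 2.19% were called lower and 1.60% higher. Of 30 NF-kappaB and Tnf pathway genes 4 fell and 0 rose (1 higher and 9 lower at an unadjusted p under 0.05), led by the lymphotoxin gene Ltb (-0.54 ± 0.08) and the inhibitor gene Nfkbie (-0.30 ± 0.06), with Cd83 and Tnfrsf1a (-0.20 ± 0.05) the others. In a fit of only the 6 arrays 1 of them fell. Calls that depended on a single array were those of Tnfrsf1a (without CsA array 1 or 2 or 3 or Flt3-L array 1 or 2, adjusted p up to 0.13).

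Of 18 CC chemokine ligand genes 4 fell and 0 rose, against 2.19% of all genes called lower. At an unadjusted p under 0.05, 2 were higher and 7 lower, and the median was -0.03. Ccl6, a myeloid chemokine, read 3550.4, 3806 and 3747 without CsA and 1667, 1644 and 1670.2 with it and fell 2.23-fold (-1.16 ± 0.06, adjusted p = 6.2e-11). In this gene the CsA arrays lay within 1643.8 and 1670.2. The macrophage inflammatory protein genes Ccl3 (-0.49 ± 0.07) and Ccl4 (-0.43 ± 0.07) fell, as did Ccl22. The monocyte attractant Ccl2 read 384, 379 and 451 without CsA and 496, 488 and 504 with it and did not pass (adjusted p = 0.21). Of 16 CXC ligands 0 passed in either direction in limma (1 higher and 0 lower at an unadjusted p under 0.05). Of 22 chemokine receptors 7 fell and 0 rose, against the same 2.19%, and 5 fell without both arrays numbered 3. At an unadjusted p under 0.05, 1 was higher and 9 lower, and the median was -0.11. Beside Cxcr5, Ccr3 and Cxcr2 the receptors that fell were Cxcr1 (-0.80 ± 0.10), Ccr1 (-0.48 ± 0.13), the dim Ccr6 (-0.45 ± 0.07) and Cxcr3. Some of the receptors that fell are known from eosinophils (Ccr3), neutrophils (Cxcr1, Cxcr2) and B cells (Cxcr5, Ccr6). Ccr1 and Cxcr3, which also fell, are not assigned to those cells here. The marker lists of eosinophils, neutrophils and B cells fell in part too, as given above. The part of those cells in the receptor result was not tested. Calls that ended when 1 array was left out were those of Ccr1 (without CsA array 1 or 2 or 3 or Flt3-L array 2 or 3, adjusted p up to 0.17).

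Of 26 leukotriene and prostaglandin genes 6 fell and 1 rose (2 higher and 7 lower at an unadjusted p under 0.05), with a median of 0.04. Of all genes 2.19% were called lower and 1.60% higher. Hpgd, which breaks prostaglandins down, read 302, 309.9 and 277 without CsA and 187, 215 and 195 with it and fell 1.49-fold (-0.57 ± 0.10), and Ggt5, which converts leukotriene C4, fell by 0.52 ± 0.12. Ptges, which makes prostaglandin E2 from the product of Ptgs2, read 238, 254 and 263 without CsA and 322, 374 and 369 with it and rose 1.41-fold (0.49 ± 0.07, adjusted p = 7.4e-05). The CD200 receptor genes moved in opposite directions: Cd200r2 (0.62 ± 0.10), Cd200r4 (0.51 ± 0.10) and Cd200r1 (0.36 ± 0.09) rose, while Cd200r3, the basophil and mast cell member, fell by 0.56 ± 0.10 at a dim signal. These genes are close paralogs in a cluster, so that signal can be shared between them. The following calls ended without 1 of the 6 arrays: Ggt5 (without CsA array 1, adjusted p up to 0.073) and Cd200r1 (without CsA array 1 or 2 or Flt3-L array 1 or 3, adjusted p up to 0.15).

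Matrix genes gave a few falls, where 2.19% of all genes were called lower. The metalloproteinase gene Adam19 read 1073, 1105 and 1039 without CsA and 696, 808 and 754 with it and fell 1.43-fold (-0.51 ± 0.06), and the inhibitor gene Timp2 fell by 0.42 ± 0.06, among 3 of 26 matrix proteolysis genes lower and 0 higher (1 higher and 6 lower at an unadjusted p under 0.05). With the replicate block 5 were lower. Of 23 chondroitin sulfate genes 4 fell and 0 rose (1 higher and 6 lower at an unadjusted p under 0.05). They were the chain-starting enzyme Xylt1 (-0.38 ± 0.05), the polymerase Chsy1 (-0.31 ± 0.06) and the sulfotransferases Chst15 (-0.36 ± 0.07) and Chst3 (-0.45 ± 0.11). Vcan, a chondroitin sulfate core protein, read 437, 455 and 365 without CsA and 259, 364 and 289.9 with it and did not pass (adjusted p = 0.18). Leaving out a single array ended the calls of Chst3 (without CsA array 2 or 3 or Flt3-L array 1 or 3, adjusted p up to 0.18).

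Genes of the amino acid stress response rose. When amino acids run short or proteins misfold, cells make the factor ATF4, which switches on amino acid synthesis, amino acid import and tRNA charging. Of 27 ATF4 stress response genes 12 rose and 0 fell (14 higher and 0 lower at an unadjusted p under 0.05), with a median of 0.17, against 1.60% of all genes called higher. Atf5 read 263, 232 and 211 without CsA and 434, 443 and 390.5 with it and rose 1.8-fold (0.85 ± 0.08, adjusted p = 7e-07). The pseudokinase gene Trib3 read 345, 313 and 312 without CsA and 553, 570.2 and 558 with it and rose 1.74-fold (0.80 ± 0.11). Mthfd2, a mitochondrial folate enzyme, read 700.0, 744 and 848 without CsA and 996, 1097 and 1387 with it and rose 1.51-fold (0.59 ± 0.10). In these 3 genes every CsA array exceeded every other array.

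Atf4 itself read 486, 505 and 523 without CsA and 646, 641 and 631 with it and rose 1.27-fold (0.34 ± 0.05, adjusted p = 0.00023). Asns, asparagine synthetase, read 2115, 2236 and 2207 without CsA and 2916, 2923 and 3147 with it and rose 1.37-fold (0.45 ± 0.07), and so did Nupr1 (0.52 ± 0.08), Ddit3, the gene of CHOP (0.41 ± 0.11), the stress-induced regulator Sesn2 (0.39 ± 0.08) and the amino acid transporter Slc7a5 (0.35 ± 0.06). Of 18 genes of tRNA synthetases, the enzymes that load amino acids onto tRNAs, 7 rose and 0 fell, against 1.60% of all genes called higher. At an unadjusted p under 0.05, 11 were higher and 0 lower, and the median was 0.23. The cysteine enzyme gene Cars read 515, 474 and 557 without CsA and 630.1, 724 and 748 with it and rose 1.36-fold (0.44 ± 0.07), and Sars (0.41 ± 0.06), Eprs (0.35 ± 0.07), Yars (0.33 ± 0.06), Nars (0.30 ± 0.05), Gars (0.27 ± 0.06) and Lars (0.28 ± 0.07) rose too. Without both arrays numbered 3 the counts were 8 and 5. Without 1 array the call ended for Ddit3 (without CsA array 1 or 3 or Flt3-L array 1 or 2, adjusted p up to 0.18), Gars (without CsA array 3, adjusted p up to 0.053) and Lars (without CsA array 2 or Flt3-L array 1 or 3, adjusted p up to 0.11).

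Genes for folding proteins in the endoplasmic reticulum rose in 10 of 25 cases and fell in 1, against 1.60% of all genes called higher. At an unadjusted p under 0.05, 16 were higher and 1 lower, and the median was 0.18. Misfolded proteins in that compartment switch on 3 sensors, IRE1 with its factor XBP1, ATF6 and PERK, and their targets are chaperones, disulfide isomerases and transport factors. Dnajb9, a co-chaperone and a standard XBP1 target, read 673, 807 and 812 without CsA and 1269, 1160.1 and 1157 with it and rose 1.57-fold (0.65 ± 0.07, adjusted p = 2.8e-06). The main chaperone gene Hspa5 (BiP) read 3082, 3289.6 and 3519 without CsA and 3757, 4105 and 4374 with it and rose 1.24-fold (0.31 ± 0.06). Further rises were those of Hyou1 (0.39 ± 0.06), Pdia6 (0.37 ± 0.07), P4hb (0.34 ± 0.05), Dnajc3 (0.31 ± 0.05), Pdia4 (0.30 ± 0.07), Atf6 (0.21 ± 0.04) and Xbp1 (0.18 ± 0.05). The member that fell was Eif2ak3, the gene of PERK (-0.28 ± 0.06, adjusted p = 0.0043). In a fit of only the 6 arrays 5 members rose, and 6 without both arrays numbered 3. Calls lost on leaving out 1 array were those of Pdia4 (without CsA array 2 or 3 or Flt3-L array 1 or 2, adjusted p up to 0.095) and Xbp1 (without CsA array 1 or 2 or Flt3-L array 1 or 2 or 3, adjusted p up to 0.19).

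Among the 20 largest rises over all genes were further genes of this compartment and of export from it. Sec24d, a coat protein of vesicles that leave it, read 378, 425 and 449 without CsA and 605, 714 and 704 with it and rose 1.62-fold (0.69 ± 0.08). Selenos, a selenoprotein that removes misfolded proteins, read 274, 312 and 312 without CsA and 436, 444 and 421 with it and rose 1.45-fold (0.54 ± 0.07). Pdia5 (0.59 ± 0.07), the Hsp70 family gene Hspa13 (0.58 ± 0.09), the vesicle fusion gene Bet1 (0.53 ± 0.10) and Tmem39a (0.53 ± 0.06) were of like size. Of 11 heat shock genes 1 rose (2 higher and 0 lower at an unadjusted p under 0.05), against 1.60% of all genes called higher. It was the co-chaperone Bag3 (0.32 ± 0.08), with 2 rises under the replicate block, and Hspd1 differed by 0.05 ± 0.07. Calls that depended on a single array were those of Bag3 (without CsA array 1 or 2 or Flt3-L array 1 or 2 or 3, adjusted p up to 0.12).

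The promoters of the 40 genes with the largest changes were searched for 2 short motifs, on both strands, in windows from RefSeq (GRCm38.p6) of 250 bases before and 50 after a listed transcript start. A gene with several windows counts if any of them holds the motif. The first was the NFAT core TGGAAA, the second ACGTGG, the core of an element bound in the unfolded protein response, which was chosen after the values were seen. ACGTGG was found in 6 of 17 rises with a window (35.3%: Sec24d, Dnajb9, Pdia5, Tlcd4, Selenos and Tmem39a), in 0 of 17 falls and in 9.4% of 27025 genes. TGGAAA was found in 4 of 17 rises (23.5%), in 7 of 17 falls (41.2%) and in 23.9% of 27025 genes. A match is a description of the sequence and not a bound site. Dnajb9 and Sec24d are shown as rises with ACGTGG or its reverse complement CCACGT in capitals, and Il1b and Jaml as falls with TGGAAA or its reverse complement TTTCCA in capitals.
Dnajb9: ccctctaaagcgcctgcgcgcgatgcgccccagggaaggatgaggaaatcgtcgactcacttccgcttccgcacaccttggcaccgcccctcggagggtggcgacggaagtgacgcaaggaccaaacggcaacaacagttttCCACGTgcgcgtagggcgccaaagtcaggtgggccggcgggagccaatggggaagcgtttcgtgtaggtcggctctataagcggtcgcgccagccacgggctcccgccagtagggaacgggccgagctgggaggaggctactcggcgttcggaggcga
Sec24d: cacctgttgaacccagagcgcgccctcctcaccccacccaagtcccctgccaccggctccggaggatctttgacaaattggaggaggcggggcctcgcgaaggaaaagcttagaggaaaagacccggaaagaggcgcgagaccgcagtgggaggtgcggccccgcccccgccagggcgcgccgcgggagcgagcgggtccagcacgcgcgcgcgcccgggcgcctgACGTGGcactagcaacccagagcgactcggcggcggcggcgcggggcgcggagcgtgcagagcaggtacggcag
Il1b: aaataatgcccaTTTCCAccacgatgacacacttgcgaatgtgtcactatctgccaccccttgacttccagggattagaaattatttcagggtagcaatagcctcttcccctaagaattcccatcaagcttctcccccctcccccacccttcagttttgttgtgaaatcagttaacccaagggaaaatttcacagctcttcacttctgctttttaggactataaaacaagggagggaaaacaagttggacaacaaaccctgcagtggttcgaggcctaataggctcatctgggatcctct
Jaml: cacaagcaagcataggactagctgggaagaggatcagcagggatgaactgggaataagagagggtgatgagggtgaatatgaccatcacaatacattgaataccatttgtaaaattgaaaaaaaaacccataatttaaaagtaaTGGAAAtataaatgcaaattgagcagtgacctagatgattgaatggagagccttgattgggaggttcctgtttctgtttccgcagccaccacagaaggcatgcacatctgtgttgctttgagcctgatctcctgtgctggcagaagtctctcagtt

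These windows lie at chr12:44210019-44210318 on the minus strand (Dnajb9), chr3:123267246-123267545 on the plus strand (Sec24d), chr2:129371090-129371389 on the minus strand (Il1b) and chr9:45078933-45079232 on the plus strand (Jaml). The capitals begin 108 bases before that start in Dnajb9, 24 in Sec24d, 238 in Il1b and 106 in Jaml. In Dnajb9 the window's 1 match to the NFAT core overlaps the capitals. For Sec24d the annotated gene begins further upstream, at position 123264801, so this window lies inside the annotated gene. The Il1b match is near the far end of its window.

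Cholesterol synthesis genes rose. They are switched on by SREBP2 when membranes are low in sterol. Of 27 cholesterol and fatty acid genes 15 rose and 3 fell, where 1.60% of all genes were called higher and 2.19% lower. At an unadjusted p under 0.05, 20 were higher and 3 lower, and the median was 0.24. Lss, lanosterol synthase, read 254, 270.1 and 258 without CsA and 331, 394 and 373 with it and rose 1.4-fold (0.49 ± 0.07, adjusted p = 7.8e-05). Fdft1, squalene synthase, read 1112, 1256 and 1169.8 without CsA and 1549.5, 1573 and 1532 with it and rose 1.32-fold (0.40 ± 0.06). Idi1 (0.39 ± 0.06), Insig1 (0.38 ± 0.06), Nsdhl (0.40 ± 0.06), Hsd17b7 (0.46 ± 0.08), Sqle (0.36 ± 0.07), Hmgcs1 (0.32 ± 0.07) and Msmo1 (0.32 ± 0.07) rose as well, and so did Fdps (0.43 ± 0.10). They range from Hmgcs1, an early step, to Nsdhl and Hsd17b7, which act late on sterols. In fatty acid synthesis, Fasn (0.26 ± 0.05) and the desaturase Scd2 (0.29 ± 0.07) rose. The regulators Srebf1 (0.04 ± 0.06) and Srebf2 (0.10 ± 0.04) were not called. Calls that ended when 1 array was left out were those of Msmo1 (without Flt3-L array 3, adjusted p up to 0.05), Fdps (without CsA array 3 or Flt3-L array 1, adjusted p up to 0.11) and Scd2 (without CsA array 1 or 2 or Flt3-L array 3, adjusted p up to 0.076).

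The 3 members that fell were Scd1, Abca1 and Abcg1. The desaturase Scd1 read 739.5, 647 and 746 without CsA and 361, 316 and 396 with it and fell 1.99-fold (-0.99 ± 0.11, adjusted p = 1.7e-06), opposite to Scd2. The cholesterol exporters Abca1, at 429.5, 478 and 476 without CsA and 287, 348 and 284 with it (-0.60 ± 0.07), and Abcg1 (-0.28 ± 0.07) fell. In a fit of only the 6 arrays 8 members rose and 2 fell, and the same counts came without both arrays numbered 3. The following calls ended without 1 of the 6 arrays: Abcg1 (without CsA array 1 or Flt3-L array 1 or 3, adjusted p up to 0.1).

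**Figure D3:**
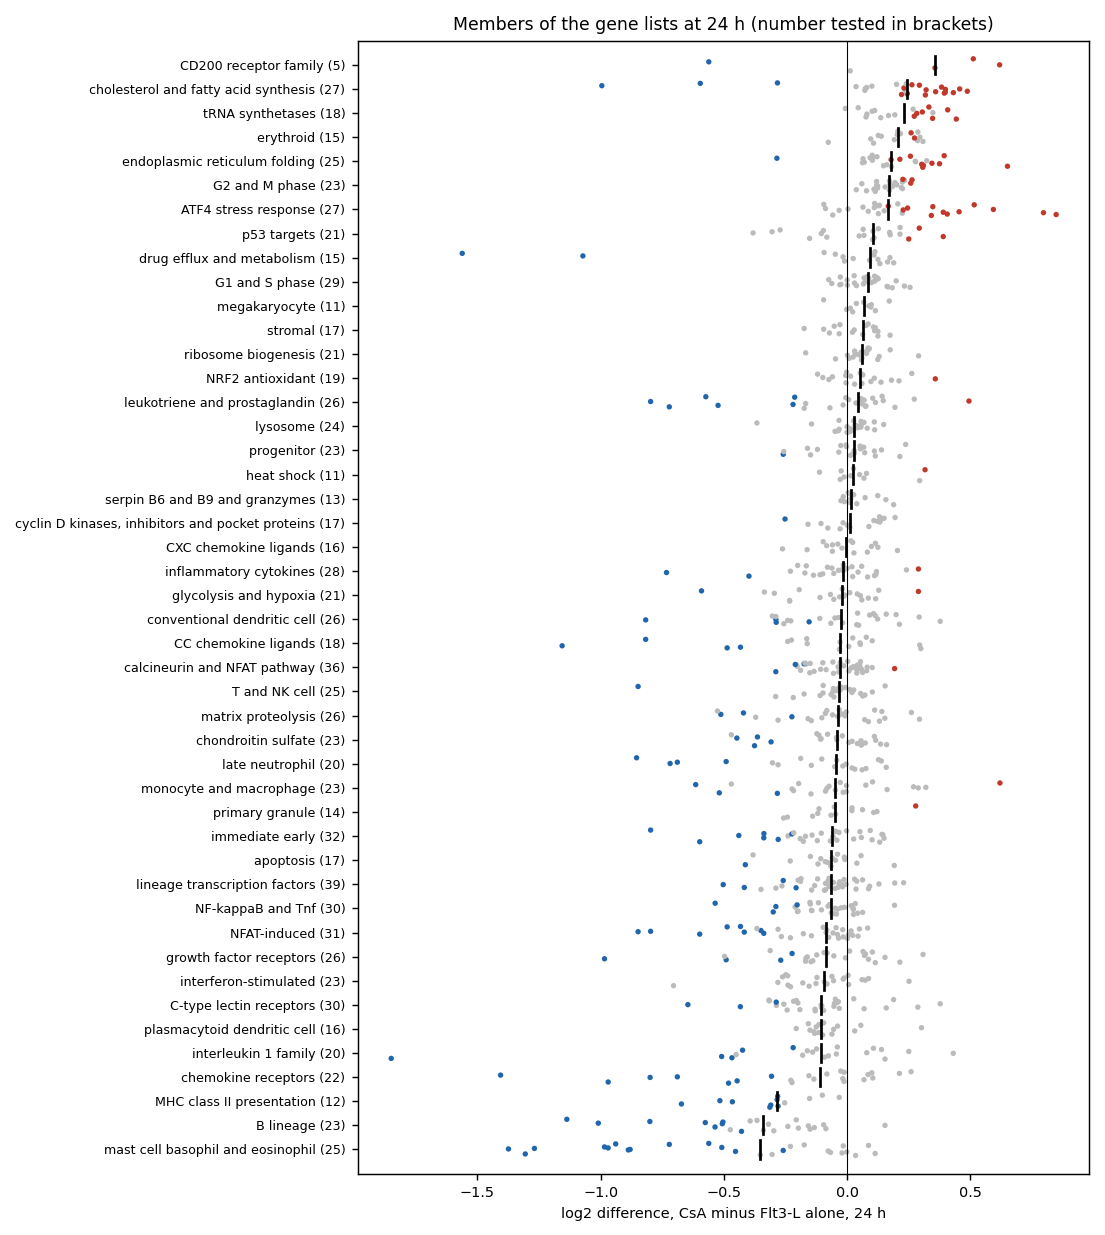
Log2 difference with CsA at 24 h (horizontal axis) of each tested member of 46 gene lists, in red where called higher, blue where called lower and grey where not called, with the black bar at the list median. The medians run from -0.35 for mast cell, basophil and eosinophil genes to 0.36 for the 5 genes of the CD200 list (4 receptors and their ligand Cd200), and the ATF4, tRNA synthetase and cholesterol lists lie to the right of 0.

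Some genes of late cell division rose. Of 29 G1 and S phase genes 0 passed in either direction in limma (6 higher and 0 lower at an unadjusted p under 0.05), with a median of 0.09. Of 23 G2 and M phase genes 3 rose and 0 fell (17 higher and 0 lower at an unadjusted p under 0.05), with a median of 0.17, against 1.60% of all genes called higher. All 23 lay above 0, and for 14 the CsA arrays lay wholly above the others, against 7.41% of all genes. The called genes were Prc1 (0.26 ± 0.07), Cenpe (0.26 ± 0.06) and Anln (0.23 ± 0.05). The kinase genes Cdk4 (0.09 ± 0.05) and Cdk6 (0.00 ± 0.05) and their partners Ccnd1 (-0.03 ± 0.07), Ccnd2 (-0.08 ± 0.07) and Ccnd3 (0.01 ± 0.06) were not called. Among 17 genes of these kinases, their inhibitors and pocket proteins 1 was called, against 2.19% of all genes called lower. It was Rbl2, a pocket protein of resting cells, which fell by 0.25 ± 0.06. In a fit of only the 6 arrays 0 of these division genes were called, and 1 G2 and M phase gene rose without both arrays numbered 3. Leaving out a single array ended the calls of Prc1 (without CsA array 2 or 3 or Flt3-L array 1, adjusted p up to 0.38), Cenpe (without CsA array 2 or Flt3-L array 1, adjusted p up to 0.12), Anln (without CsA array 2 or 3 or Flt3-L array 1, adjusted p up to 0.12) and Rbl2 (without CsA array 3 or Flt3-L array 2, adjusted p up to 0.067).

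Among genes of early and red cells, a few were called, where 1.60% of all genes were called higher and 2.19% lower. Of 23 progenitor genes Gata2 was the 1 call, a fall, and 1 rose with the replicate block. The median was 0.03, and Kit, the stem cell factor receptor, read 648, 657 and 605 without CsA and 705, 793 and 718 with it (adjusted p = 0.48). Of 15 erythroid genes 2 rose, Rhag (0.27 ± 0.06) and Sptb (0.26 ± 0.06), and 0 fell (9 higher and 0 lower at an unadjusted p under 0.05), against 1.60% of all genes called higher. Of the 15, 14 lay above 0, the median was 0.21 and 5 members rose with the replicate block. A fit of only the 6 arrays called 0 of them, and 1 rose without both arrays numbered 3. The summed erythroid intensity overlapped between groups, at 24450 to 27201 without CsA and 27100 to 30542 with it. Of 14 primary granule genes 1 rose, Serpinb1a (0.28 ± 0.07), with 1 higher and 2 lower at an unadjusted p under 0.05. Myeloperoxidase (Mpo) read 4002, 3824 and 3834 without CsA and 3264, 3289 and 3196 with it and was not called (-0.26 ± 0.08, adjusted p = 0.06, and 0.023 with the replicate block). Megakaryocyte, stromal, ribosome biogenesis, lysosome, interferon-stimulated and serpin with granzyme lists had 0 calls in either direction in limma. Their medians ran from -0.09 (interferon) to 0.07 (megakaryocyte). At an unadjusted p under 0.05 there were 1 higher and 2 lower among interferon-stimulated genes, 1 higher and 1 lower among stromal, 0 higher and 0 lower among megakaryocyte, 2 higher and 1 lower among ribosome biogenesis, 1 higher and 2 lower among lysosome and 1 higher and 0 lower among serpin and granzyme genes. Of 25 T and NK cell genes Il2ra was the 1 call, and the T cell receptor complex gene Cd3d was dim at 60.7, 56.3 and 60.2 without CsA and 42.2, 52.7 and 58.7 with it. Without 1 array the call ended for Rhag (without CsA array 1 or Flt3-L array 1, adjusted p up to 0.077), Sptb (without CsA array 1 or 2 or Flt3-L array 2, adjusted p up to 0.13) and Serpinb1a (without CsA array 2 or 3 or Flt3-L array 1 or 3, adjusted p up to 0.21).

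Several single genes of other lists changed, where 1.60% of all genes were called higher and 2.19% lower. The survival gene Mcl1 read 2785, 2767 and 2782 without CsA and 1904, 2222 and 2147 with it and fell 1.33-fold (-0.41 ± 0.06, adjusted p = 0.00015), and it was the 1 call among 17 apoptosis genes, with 3 called under the replicate block. The oxygen-sensing hydroxylase gene Egln3 read 537, 589.6 and 598 without CsA and 334, 414 and 400.2 with it and fell 1.51-fold (-0.59 ± 0.11). The antioxidant gene Srxn1 read 579, 592 and 576 without CsA and 762, 731 and 747 with it and rose 1.28-fold (0.36 ± 0.06), 1 of 19 NRF2 genes, and 3 rose under the replicate block. Of 15 drug efflux and metabolism genes 2 fell, Ephx1 and Cyp4f18. The efflux pump genes Abcb1a (0.13 ± 0.07) and Abcb1b (0.19 ± 0.10), whose protein carries CsA, were not called.

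Each treated culture was also set against the culture with the same replicate number, since numbers appeared to pair the arrays at 24 h. The median of the mast cell, basophil and eosinophil list was -0.32, -0.37 and -0.44 for numbers 1, 2 and 3. For B lineage genes it was -0.28, -0.39 and -0.39, and for class II genes -0.23, -0.29 and -0.31. For cholesterol genes it was 0.24, 0.25 and 0.28, and for tRNA synthetase genes 0.23, 0.20 and 0.24. The medians of these 5 lists moved the same way in each of the 3 numbers. The same arrays gave the list results above, so this is no separate support. CsA arrays lay wholly below the others for 16 of 25 mast cell, basophil and eosinophil genes. The same held for 13 of 23 B lineage and 10 of 12 class II genes. For 20 of 27 cholesterol genes the CsA arrays lay wholly above. In these lists the shared sign of the medians was thereby fixed. CC chemokine ligands, by contrast, lay at 0.04, -0.10 and -0.06.

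**Figure D4:**
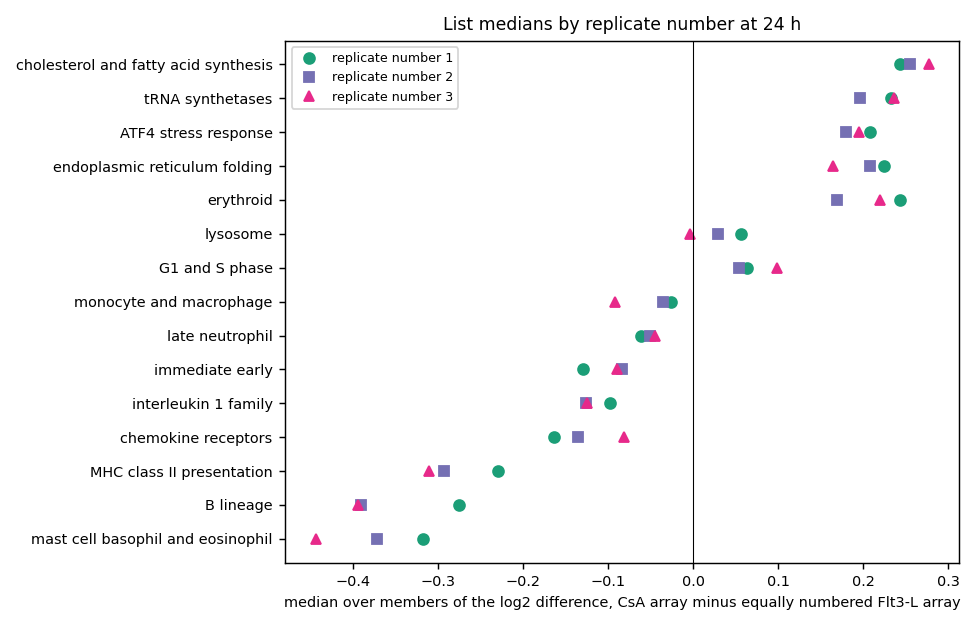
Median log2 difference of 15 gene lists between the CsA array and the Flt3-L array of the same replicate number at 24 h (log2 scale, 1 marker per number). ATF4 stress response genes lie at 0.21, 0.18 and 0.20, and immediate early genes at -0.13, -0.08 and -0.09.

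The effect at 24 h was compared with that at 12 h and at 48 h, each against its own 3 arrays without CsA. At 12 h CsA array 3 correlated best with Flt3-L array 3 (0.9976), and its lowest correlation within its own group was 0.9966. At 12 h 562 genes rose (2.82%) and 779 fell (3.91%), 6.73% in all, and at 48 h 432 rose (2.17%) and 468 fell (2.35%), 4.51% in all. Of the 318 genes that rose at 24 h, 163 rose at 12 h (51.3% of the 24 h list and 29.0% of the 12 h list) and 184 at 48 h (57.9% and 42.6%). Of the 436 that fell, 139 fell at 12 h (31.9% and 17.8%) and 266 at 48 h (61.0% and 56.8%). Opposite calls numbered 1 rise and 1 fall at 12 h and 0 at 48 h. Of the 754 genes, 217 were called at 12 h and 48 h too, another 217 at neither, and 150 at 24 h alone of the 4 times. At 11 days, when 980 genes rose (4.92%) and 1411 fell (7.08%), 12.0% in all, 79 of the rises and 182 of the falls were called the same way (24.8% and 41.7%), and 32 and 21 the opposite way.

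The difference between times was tested with an interaction in limma. The effect at 24 h was lower than at 12 h for 17 genes (0.0853%) and higher for 7 (0.0351%), or 23 and 4 with each array's median subtracted and 49 and 29 with the replicate block. Without CsA array 3 at 12 h, 32 were lower and 33 higher. The genes with a lower effect included those of eosinophils and basophils. Epx was not called at 12 h (0.06 ± 0.12) and fell at 24 h and at 48 h (-1.18 ± 0.12), and its effects at 24 h and 12 h differed by -1.43 ± 0.17 (adjusted p = 0.00034). Ear6 (-0.12 at 12 h, a difference of -1.15 ± 0.18), Mcpt8 (-0.18, -1.12 ± 0.23), Il5ra (0.02, -1.01 ± 0.18) and Prss34 (-0.10, -0.83 ± 0.14) were not called at 12 h either. In the eosinophil and basophil list 2 of 25 members fell at 12 h, 13 at 24 h, 15 at 48 h and 10 at 11 days, when 2 rose. The B cell genes Cxcr5 (-0.60 at 12 h, a difference of -0.81 ± 0.14) and Bank1 (-0.27, -0.53 ± 0.11) also had a larger fall at 24 h. Il1rn was not called at 12 h (0.21 ± 0.07), and its effects differed by -0.68 ± 0.10.

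Against 48 h the effect was higher at 24 h for 3 genes (0.0150%) and lower for 0, where an unadjusted p under 0.05 was reached by 217 and 486 genes. Quantile normalization again gave 3 and 1, and the replicate block 9 and 2. The 3 genes fell at 48 h: Alox15 (-2.00 ± 0.12, a difference of 1.28 ± 0.17), the myeloid receptor gene Adgre4 (-1.82 ± 0.13, 1.07 ± 0.19) and F13a1, coagulation factor XIII of monocytes (-0.75 ± 0.06, 0.55 ± 0.09). At 24 h Adgre4 fell by 0.74 ± 0.13, and F13a1 was not called (-0.20 ± 0.06). With a fit of only the arrays compared 0 genes differed from 48 h, and 0 were higher and 11 lower against 12 h.

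**Figure D5:**
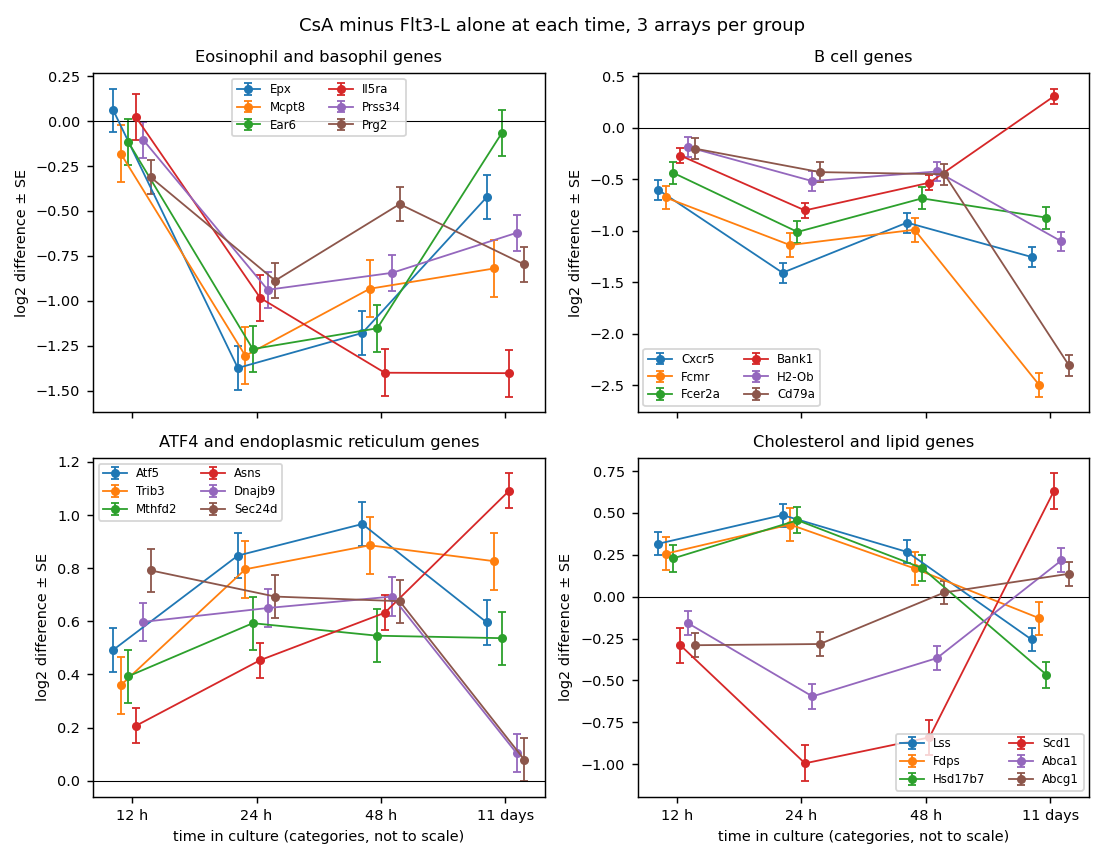
CsA effect (log2 difference from the 3 arrays without CsA at the same time, ± SE) at 12 h, 24 h, 48 h and 11 days for 24 genes in 4 panels. Epx goes from 0.06 at 12 h to -1.37 at 24 h and -1.18 at 48 h, and Atf5 stays between 0.49 and 0.97.

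Stress genes were higher at 12 h too. Atf5 rose by 0.49 ± 0.08 at 12 h and by 0.97 ± 0.08 at 48 h, Dnajb9 by 0.60 ± 0.07 and 0.69 ± 0.07, and Sec24d by 0.79 ± 0.08 and 0.68 ± 0.08. At 11 days Dnajb9 (0.10 ± 0.07) and Sec24d (0.08 ± 0.08) were no longer called, while Atf5 (0.60 ± 0.08) and Asns (1.09 ± 0.07) were. Endoplasmic reticulum genes rose in 11 of 25 cases at 12 h, 11 at 48 h and 2 at 11 days, and ATF4 genes in 9, 9 and 17 of 27. Cholesterol genes rose in 12 of 27 at 12 h but 4 at 48 h and 3 at 11 days, when 10 fell. Of the 20 largest rises at 24 h, 16 rose at 12 h, 17 at 48 h and 8 at 11 days, and of the 20 largest falls 11, 20 and 14 fell. Called the opposite way were Tmem39a (-0.21 ± 0.06) and Scd1 (0.63 ± 0.11), both at 11 days.

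Against unstimulated cells, the change in cultures with Flt3-L alone at 24 h is given beside the effect of CsA for a few genes, and both use the same 3 Flt3-L arrays. In that comparison 17.9% of all genes were higher and 17.7% lower. Epx differed by -1.15 ± 0.12 in culture without CsA and by a further -1.37 ± 0.12 with it. Prg2 differed by -0.47 ± 0.10 and -0.89 ± 0.10, while Siglecf differed by -0.02 ± 0.07 in culture and fell with CsA (-0.51 ± 0.07). The cholesterol gene Hmgcs1 was higher in culture by 1.35 ± 0.07 and higher again with CsA by 0.32 ± 0.07. Slc7a5 was lower in culture (-0.28 ± 0.06) and higher with CsA (0.35 ± 0.06). The class II gene H2-Ab1 was higher in culture (0.73 ± 0.07) and lower with CsA (-0.28 ± 0.07).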

How the data were processed

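RNA from each culture was hybridised to Affymetrix whole-transcript arrays, 1 array per sample. The deposited values are normalized intensities on a linear scale, which the authors made with RMA per the labels and the submitters' processing notes; versions and genome build are not given in the sources used here. RMA forces the arrays onto a common distribution, so a shift shared by most genes would be removed. Arrays give no read depth, and 3 arrays per group limit the precision. Of 28815 probe sets, 21780 had a single gene symbol, 1605 several (left out) and 5430 none. Where several probe sets named a gene (998 genes), the one with the highest mean over 27 arrays stood for it, which left 19935 genes. Another probe set existed for 38 of the called genes and had the opposite sign in 5 (Ccdc180, Dab2, Dnah6, Dpep2 and Hivep3).

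The log2 values were fitted with limma 3.58.1 (lmFit and eBayes, R 4.3.3) over 9 group means and 27 arrays, with Benjamini-Hochberg adjustment over all genes. Calls are at an adjusted p under 0.05. The fit was tested on simulated data. Named genes are the 20 largest rises and 20 largest falls whose groups did not overlap, predicted genes left out, members of 46 lists with 1010 tested entries, and genes named for their role. The members and lists were chosen with earlier results of these data known. Labels share replicate numbers across groups. At 24 h the deviations of same-numbered arrays from their group means correlated at 0.37, 0.35 and 0.40, and the highest with another number were -0.14, -0.06 and -0.18. Deviations within a group cancel out, so the values with other numbers are partly fixed by those with the same number. At 12 h the same number was also the highest for each array (0.19, 0.19 and 0.10). At 48 h numbers 2 and 3 (0.18 and 0.19) were below another number (0.23 and 0.22). At 11 days so were numbers 1 and 3 (0.01 and -0.04, against 0.08 and 0.07). The numbers were taken to pair the arrays at 24 h, but the main fit, with its SE and adjusted p, leaves this pairing out. A fit with the number as a block within each time was run as an alternative. It pairs the arrays by number at 48 h and 11 days too, and their spread enters its 24 h calls. The other alternatives were other scalings, weights, filters, probe set means, a fit of only the groups compared, and leaving out each array.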

Additional observations from a re-analysis of the deposited data

Results flagged for a closer look

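The results here are genes whose CsA effect at 24 h differed from that at another time by an interaction test in limma over all genes. Each value is the 24 h effect minus the other, on the log2 scale, and the alternatives are the other processing settings. Values below 0 against 12 h were found for Epx (-1.43, adjusted p = 0.00034), Rgs13 (-1.18, 0.0038), Ear6 (-1.15, 0.0066), Mcpt8 (-1.12, 0.04), Il5ra (-1.01, 0.022), Prss34 (-0.83, 0.011), Cxcr5 (-0.81, 0.012), Il1rn (-0.68, 0.0038), Bank1 (-0.53, 0.037) and Ccl6 (-0.48, 0.026). Epx, Il1rn and Prss34 stayed called in each of 21 alternatives, Ear6 in 20, Cxcr5 in 19, Rgs13 in 19 of 20, Il5ra in 14, Ccl6 in 10 and Mcpt8 and Bank1 in 9.

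Values above 0 against 12 h were found for Clec4n (1.0, adjusted p = 0.022), Fam20c (0.55, 0.0066), Gdpd1 (0.55, 0.042), Srxn1 (0.49, 0.0066) and Zc3h12c (0.48, 0.015). Clec4n, a fungal mannan receptor gene, fell at 12 h and was not called at 24 h. Srxn1 and Fam20c kept their calls in 19 of 21 alternatives, Zc3h12c in 16, Clec4n in 12 and Gdpd1 in 9. Against 48 h the genes were Alox15 (1.28, adjusted p = 0.0025), Adgre4 (1.07, 0.041) and F13a1 (0.55, 0.018), whose calls remained in 20, 11 and 13 of 21 alternatives. The sign of the difference was the same in every alternative for each of these 18 genes.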

How the results depend on the processing

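Of 163 named genes called at 24 h, 103 were called under every one of the 15 settings run, among them 37 of the 40 largest changes (not Klk1b1, Ednrb or Jchain), and 0 of the named genes changed sign while called. The 318 rises and 436 falls became 135 and 261 when only the compared groups were fitted and 129 and 201 without both arrays numbered 3, a setting chosen after seeing the data. Leaving out 1 array gave 181 to 309 rises and 285 to 371 falls. With the replicate block 448 rose and 593 fell. Among named genes the block ended the call of Gata2 and added 34, and beside the results given in the text it changed no other call of a gene named there. The difference between 24 h and 12 h (7 higher, 17 lower) was 60 and 63 with array weights, 29 and 49 with the replicate block, 0 and 11 when only the compared groups were fitted and 0 and 4 without both arrays numbered 3. The higher count was 11 with quantile normalization again and 4 with array medians subtracted. Leaving out 1 array gave 2 to 33 higher and 6 to 32 lower. The difference between 24 h and 48 h (3 higher, 0 lower) was 5 and 2 with a filter on dim genes and 9 and 2 with the block. The higher count was 6 with array medians subtracted, 0 with only the compared groups fitted and 1 without both arrays numbered 3. The lower count was 1 with quantile normalization again, 3 with trend and robust eBayes and 1 with array weights. Leaving out 1 array gave 1 to 4 higher and 0 to 1 lower. The cause of these shifts was not tested. Array intensities below 75.0 are least certain.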
